A study of Bos taurus with 8 samples.

Results

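TPM1, TPM2, TPM4, ACTA2, ACTG2, TAGLN, CNN1, MYL9, MYLK and CALD1 are 10 genes of the contractile apparatus of smooth muscle cells and myofibroblasts. They were chosen by name from the 12602 genes with a named probe on a bovine microarray, with their lower signal in embryo-derived stem-like cells (eSLCs) than in somatic cells (SCs) already known. That contrast is therefore given for them as values. The number of members called by the fit over all genes is printed beside the share of all genes called, and nothing is read from it. RefSeq accessions matched 32 of the 43637 probes of the array to them. All 10 genes passed the filter on low signals, and each was well above background on all 8 arrays.

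Smooth muscle actins form thin filaments that slide along myosin when myosin light chain kinase phosphorylates the regulatory light chain. Tropomyosins lie along these filaments, and transgelin, calponin and caldesmon bind them and limit or tune their interaction with myosin. The same genes are switched on when fibroblasts become myofibroblasts in culture or in wounds, where serum response factor and its MRTF coactivators control them.

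RNA of cultured cells of HanWoo, the native cattle of Korea, was hybridized with Cy3 to 8 Agilent arrays, 1 for each sample. The eSLCs were outgrowths of blastocysts that were in vitro produced (IVP-eSLCs: I2, passage 35, and I9, passage 30), made by nuclear transfer from ear skin donor cells (NT-eSLCs: N2, passage 36, and N7, passage 30) or made by parthenogenesis (PA-eSLCs: P1, passage 31, and P4, passage 36). All of them grew on inactivated mouse STO feeder cells in 3i medium, which holds the inhibitors PD184352, SU5402 and CHIR99021 of MEK, the FGF receptor and GSK3. The SCs, at passages 5 and 10 (SC P5 and SC P10), grew in DMEM with fetal bovine serum. Medium, feeder and cell type thus differed together and cannot be told apart. The labels do not name the tissue of the SCs, each eSLC line stands for 1 colony with 1 array, and nothing says whether SC P5 and SC P10 were separate cultures. The p-values below measure the spread between these samples only.

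A level here is a probe's background-subtracted signal on a scale where the 75th percentile of each array is 1000, with a floor at 13.3. Levels are compared between arrays and not between probes, except that the levels of a marker list are summed over its genes. The brightest probes weigh most in such a sum. On each array 71.2% to 76.7% of probes were well above background, and the raw 75th percentile ranged from 1191 scanner units in N2 to 4086 in N7. One slide carried SC P5 with I2, I9 and N7, and the other SC P10 with P1, P4 and N2. Fibroblast markers were abundant in the SCs, where 11 of 12 were called higher than in eSLCs, and their summed level was 670606 to 825420 in SCs and 5722 to 10961 in eSLCs. Of 14 trophectoderm and epithelial markers, 13 were called higher in eSLCs, with summed levels of 474305 to 1136152 against 17868 to 17994 in SCs. Among pluripotency genes, which were looked up after other values had been seen, NANOG did not exceed 35.4 in any eSLC line and was at the floor in both SC arrays. POU5F1 reached 899 in N7 and at most 101 in the other lines, against 16.3 and 26.0 in the SCs, while SOX2 was lower in eSLCs, at 46.9 to 99.5 against 459 and 551.

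ACTA2 encodes smooth muscle alpha-actin, the marker most often used for myofibroblasts. Its level was 823 in I2, 6723 in I9, 16054 in N2, 1973 in N7, 597 in P1 and 471 in P4, with 182354 for SC P5 and 246405 for SC P10. All eSLC lines lay below both SC arrays, and N2 and I9 stood above the other lines. The mean of the eSLC conditions was 111-fold below that of the SCs, with a log2 difference of -6.79 and an SD of 2.05 over the 6 eSLC arrays. Even the highest line, N2, was 11.4-fold below the lower SC array. In bulk RNA, fewer cells that express a gene and less RNA per cell cannot be told apart.

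ACTG2 encodes smooth muscle gamma-actin, whose protein sequence is nearly the same as that of smooth muscle alpha-actin. Its brighter probe gave 12892 in I2, 12630 in I9, 12705 in N2, 7780 in N7, 12687 in P1 and 8321 in P4, where SC P5 gave 30281 and SC P10 gave 29321. The groups did not overlap, but the difference was only 2.73-fold. Its other probe gave 27.3 in I2, 1276 in I9, 3164 in N2, 134 in N7, 39.9 in P1 and 63.1 in P4, and SC P5 had 34097 and SC P10 29391. At this probe the lines spread widely, with N2 and I9 highest as for ACTA2, and the eSLC mean was 173-fold below the SC mean. Over the 6 eSLC arrays its log2 levels followed those of the ACTA2 probe with a Pearson r of 0.961, while the brighter probe had an r of 0.331. These are correlations between probes on the same arrays and are given as a description. Which transcripts each probe binds was not tested, so the size of the ACTG2 difference is uncertain.

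MYL9, the regulatory light chain of smooth muscle myosin, had a level of 5385 in I2, 9348 in I9, 16628 in N2, 9355 in N7, 7443 in P1 and 8210 in P4, with 49942 for SC P5 and 53410 for SC P10. N2 was the highest line and I2 the lowest, and no eSLC array reached an SC array. The eSLC mean was 5.84-fold below the SC mean at this probe and 7.85-fold at the other. MYLK, the kinase that phosphorylates this light chain, had a level of 5536 in I2, 4402 in I9, 4533 in N2, 3080 in N7, 3758 in P1 and 3478 in P4, where SC P5 gave 53861 and SC P10 gave 70053. Its eSLC levels stayed within 1.80-fold of each other, and the difference from the SCs was 15.1-fold at the brighter probe and 15.2-fold at the other. MYLK thus varied least among the lines, after ACTG2 at its brighter probe with a range of 1.66-fold, and N2 did not stand out for it.

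At the brightest probes, TPM2, the beta-tropomyosin gene, showed the widest gap of the 10 genes. Its level was 14.5 in I2, 20.3 in I9, 34.7 in N2, 72.4 in N7, 35.9 in P1 and at the floor of 13.3 in P4, and SC P5 had 45896 and SC P10 53266. All eSLC arrays lay within 5.44-fold of the floor, and the SCs exceeded them by 1859-fold, an eSLC minus SC difference of -10.86 on the log2 scale. N7, not N2, was the highest line. With P4 at the floor, the size of this fold depends on the floor, and with normexp background correction the log2 difference was -9.59. Averaging all probes of a gene gave -7.94 for TPM2 and also -7.94 for TAGLN.

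TPM1, which encodes alpha-tropomyosin, had a level of 1553 in I2, 3671 in I9, 5022 in N2, 1237 in N7, 2175 in P1 and 1750 in P4, with 51896 for SC P5 and 57121 for SC P10. The eSLC lines kept a clear TPM1 signal, 24.0-fold below the SCs on average. TPM4, a tropomyosin of non-muscle and smooth muscle cells, had a level of 45538 in I2, 68709 in I9, 74613 in N2, 31545 in N7, 49343 in P1 and 40679 in P4, where SC P5 gave 121559 and SC P10 gave 143360. It was the member with the smallest difference, 2.66-fold, and its highest line, N2, was only 1.63-fold below the lower SC array. At the brightest probes, the difference of the tropomyosins from the SCs thus ranged from 2.66-fold for TPM4 to 1859-fold for TPM2.

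TAGLN encodes transgelin (SM22-alpha), an early marker of smooth muscle differentiation. Its level was 27.9 in I2, 151 in I9, 782 in N2, 218 in N7, 68.7 in P1 and 61.3 in P4, and SC P5 had 32843 and SC P10 50630. The lines differed by up to 28.0-fold among themselves and lay 339-fold below the SCs on average. CNN1, basic calponin, which marks mature contractile cells, had a level of 84.4 in I2, 268 in I9, 1036 in N2, 216 in N7, 506 in P1 and 93.4 in P4, with 39177 for SC P5 and 65029 for SC P10. Its difference was 203-fold, with N2 and P1 highest.

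CALD1 encodes caldesmon, of which smooth muscle makes a heavy and other cells a light form. Its level was 9317 in I2, 27330 in I9, 40134 in N2, 44303 in N7, 8212 in P1 and 11289 in P4, where SC P5 gave 122033 and SC P10 gave 161979. N7 and N2 were the highest lines, and N7 was 2.75-fold below the lower SC array. The mean difference was 7.54-fold.

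**Figure D1:**
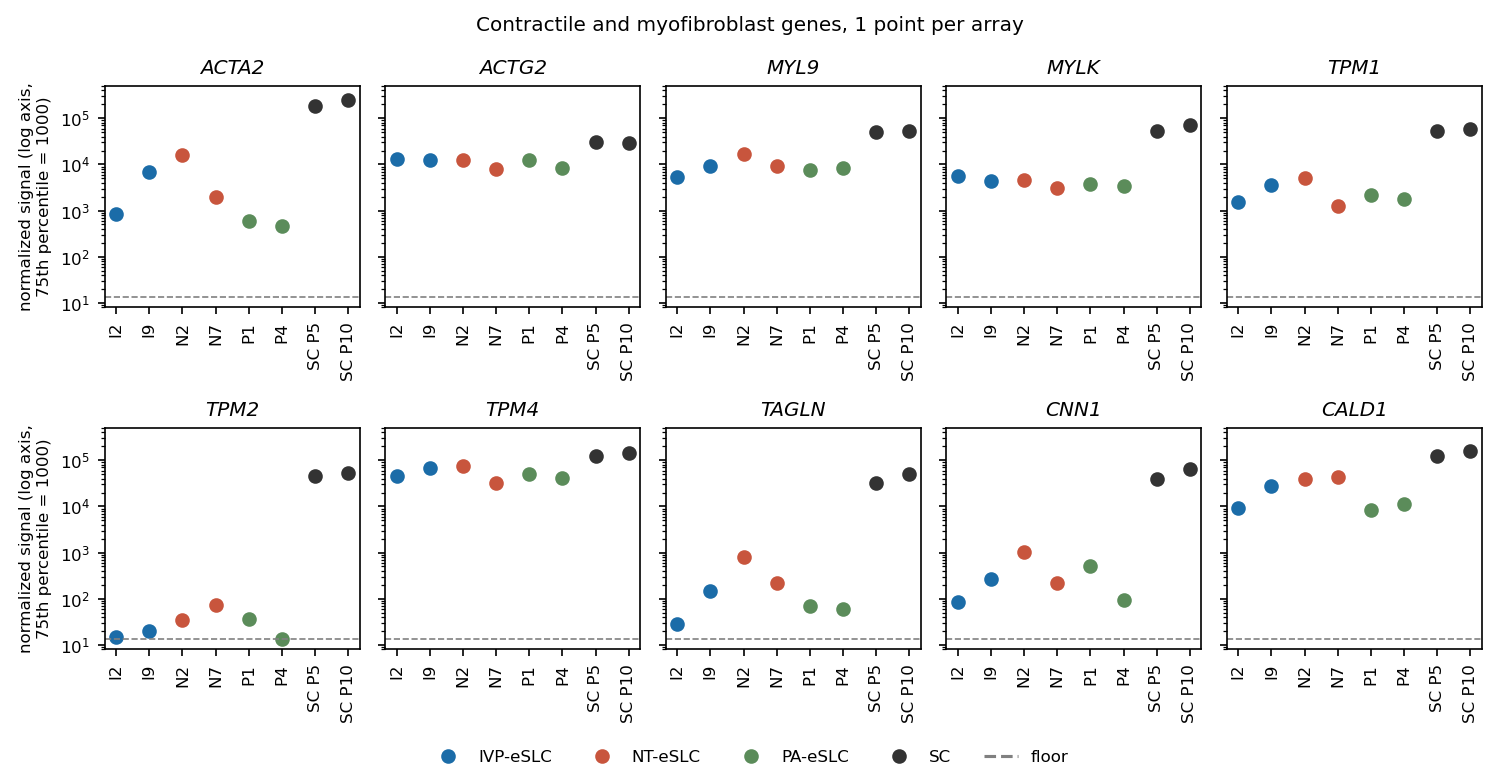
Normalized signal of the brightest probe of each of the 10 genes on a log axis, with 1 point for each of the 8 arrays, coloured by condition, and the floor as a dashed line. In every panel both SC arrays lie above all 6 eSLC arrays, from 2.66-fold on average for TPM4 to 1859-fold for TPM2, and ACTA2 and TAGLN show the widest spread among the eSLC lines.

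All 10 genes were lower in eSLCs when the arrays were scaled to the 75th percentile or the median, quantile normalized or taken from the series matrix. With the processed signal of the scanner software the direction turned for TPM1, MYLK and CALD1, which were higher in eSLCs by 3.15, 7.31 and 3.62 on the log2 scale. Ordered by the gap to the SCs, TPM2, TAGLN, CNN1 and ACTA2 lay over 100-fold below, TPM1 and MYLK 24.0-fold and 15.1-fold, CALD1 and MYL9 7.54-fold and 5.84-fold, and ACTG2 and TPM4 under 3-fold. The median log2 difference of the 10 genes was -4.25, and that of all 10957 genes tested was 0.23. The eSLC and SC arrays did not overlap for 10 of the 10 genes, with eSLCs lower, which was the case for 23.6% of all genes tested, while 34% had eSLCs higher without overlap. The fit over all genes called 10 of 10 lower in eSLCs, where it called 15.7% of all genes lower and 19.7% higher. The genes were chosen for this contrast. By origin, 9 of 10 were called lower in IVP-eSLCs (14.6% of all genes), 9 of 10 in NT-eSLCs (13.9%) and 10 of 10 in PA-eSLCs (14.9%), with TPM4 the exception in IVP- and NT-eSLCs. These 3 comparisons share the SC arrays, and the counts rest on them, with 5 members called in IVP-eSLCs without SC P10 and 3 in NT-eSLCs without either SC array.

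Within each slide the 10 genes were lower in the eSLCs as well. The largest gap between the slides was for CALD1, with a log2 difference of -2.44 on the slide with SC P5 and -3.39 on the slide with SC P10. TPM2 gave -10.69 and -11.03, ACTA2 -6.36 and -7.22, and TAGLN -8.40 and -8.41. SC P10 was above SC P5 for 9 of the 10 genes, by up to 1.66-fold for CNN1, and was below it for ACTG2. These 2 arrays differed in both passage and slide, which cannot be told apart.

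The probes of a gene did not always give the same size of difference. All 32 probes had a lower mean in eSLCs, 29 of them by at least 2-fold, and the arrays of eSLCs and SCs did not overlap at 30. The exceptions to the last count were 2 probes of TPM4, with differences of 1.09-fold and 1.22-fold. The other TPM4 probes gave 1.59-fold, 2.66-fold and 3.42-fold. Averaging all probes of a gene, TPM4 had a log2 difference of -0.85 instead of -1.41.

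TPM1, TPM2, ACTG2 and CALD1 had probes whose differences lay more than 3 log2 units apart. Of the 8 TPM1 probes, 6 differed by 10.5-fold to 26.6-fold, while the remaining pair differed by 577-fold and 633-fold. One of that pair had levels of 15.8 in I2, 44.6 in I9, 72.5 in N2, 17.4 in N7, 71.1 in P1 and 40.3 in P4, and SC P5 had 21032 and SC P10 25994. The gene makes several tropomyosin forms by alternative promoters and exons, and all 8 probes carry the same RefSeq accession. The TPM1 probes also ordered the lines in different ways. N2 was the highest line at 4 probes, the brightest among them, and P1 at the other 4.

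CALD1 showed a like split. One of its probes had levels of 13.3 in I2, 208 in I9, 581 in N2, 97.1 in N7, 19.8 in P1 and 43.0 in P4, with 19237 for SC P5 and 20176 for SC P10. N2 and I9 were the highest lines there, and the difference was 276-fold, against 7.54-fold and 7.74-fold at the other probes. TPM2 probes ranged from 5.78-fold to 1859-fold. The smallest of these came from a probe with levels of no more than 16.6 in eSLCs and 98.9 in SCs, close to the floor in both, so that its fold is limited by the background. At the TPM2 probes with differences of 952-fold and 64.0-fold, 4 and 5 of the 8 arrays were at the floor, so these folds depend on it. Transgelin probes gave 177-fold and 339-fold, and the brighter calponin probe 203-fold. At the other calponin probe 5 of the 6 eSLC arrays were at the floor, so that its difference of at least 67.1-fold is a bound.

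**Figure D2:**
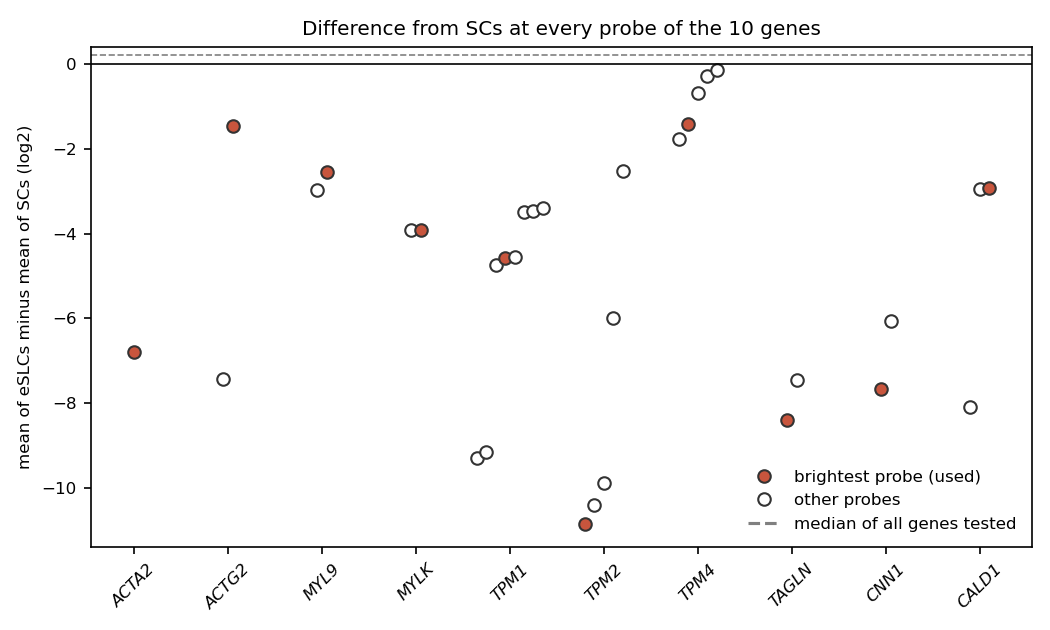
Mean log2 level of the eSLC conditions minus that of the SCs for each of the 32 probes, grouped by gene, with the brightest probe of a gene filled. Every probe lies below 0, MYL9 and MYLK probes lie close together, and TPM1, TPM2, ACTG2 and CALD1 probes lie more than 3 log2 units apart.

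Among the eSLC lines, N2 had the highest level of 6 of the 10 genes (TPM1, TPM4, ACTA2, TAGLN, CNN1 and MYL9) and was among the 2 highest lines for 9, with TPM2 the exception. Of all genes tested, 29.9% had N2 among the 2 highest lines. The median of the members' levels in N2, each centred on its mean over the 6 lines, was 1.01 on the log2 scale, and -0.04 for all genes tested. I9 followed with 0.27, and I2 was lowest by this median with -0.79. By single genes, N7 was the lowest line for 4 members and I2 for 3, while I2 was the highest line for 2. I9 and N2 were together the 2 highest lines for TPM1, TPM4 and ACTA2, which was the case for 13.8% of all genes. N2 also had the lowest 75th percentile of the arrays, and the part of this in its high values was not tested.

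Between the highest and the lowest eSLC line, ACTA2 ranged over 34.1-fold, TAGLN over 28.0-fold and CNN1 over 12.3-fold. TPM2 and CALD1 ranged over 5.44-fold and 5.40-fold, TPM1 over 4.06-fold, MYL9 over 3.09-fold and TPM4 over 2.37-fold. The actin and actin-binding genes that spread most, ACTA2, TAGLN and CNN1, were all highest in N2, and their lowest line was I2 or P4. The 12 fibroblast markers differed among themselves in the order of the lines. VIM, COL1A2, S100A4 and POSTN, named after their values were seen, were highest in N2, with levels of 4414, 948, 209 and 29.1, and the other markers were highest in other lines. The list's median centred log2 level was 0.02 in N2, 0.33 in I9 and between -0.36 and -0.10 in the other lines, and its summed level was at most 10961 in any eSLC line against at least 670606 in SCs. The part of these markers in the spread of the members was not tested.

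**Figure D3:**
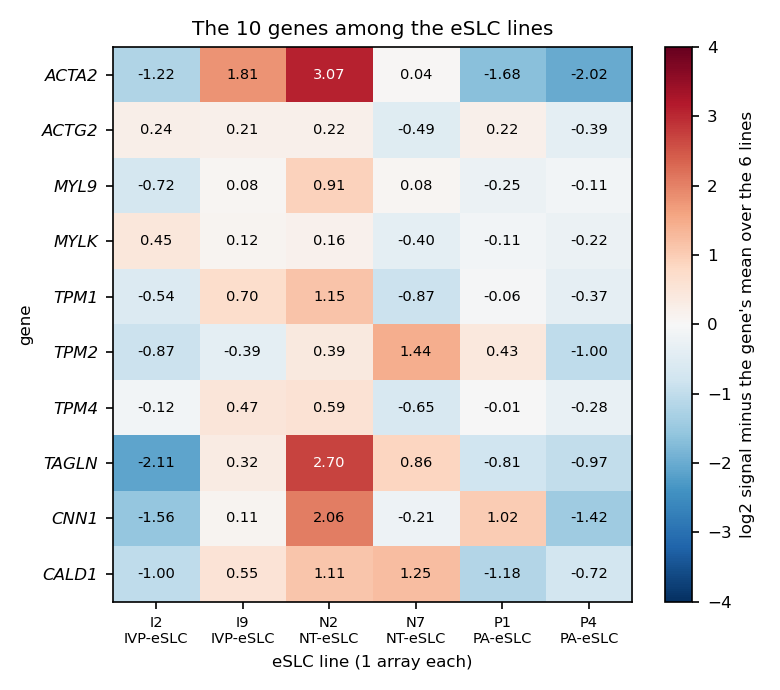
Log2 level of each of the 10 genes in the 6 eSLC lines minus the gene's mean over these lines, as a colour scale with the values printed. N2 is the warmest column, highest for 6 genes, and ACTA2, TAGLN and CNN1 vary most, while ACTG2 and MYLK vary little.

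The origins of the embryos were compared with limma over all 10957 genes, with 2 arrays per origin. NT-eSLCs had higher means than IVP-eSLCs for 7 of the 10 genes, with a median log2 difference of 1.04 against -0.02 for all genes. The largest was TAGLN, with a mean log2 level of 8.69 ± 1.30 (SD, n = 2) in NT-eSLCs and 6.02 ± 1.72 (SD, n = 2) in IVP-eSLCs. The log2 difference was 2.67 with an SE of 0.92 and did not pass the test (limma, adjusted p = 1). None of the 10 genes was called, nor was any other gene (0%). At an unadjusted p under 0.05, limma listed 3 members, TPM2, TAGLN and CALD1, and 2.80% of all genes. The NT and IVP arrays did not overlap for 4 members, against 23.2% of all genes.

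PA-eSLCs had lower means than NT-eSLCs for 9 of the 10 genes. The widest difference was that of ACTA2, with a mean log2 level of 9.05 ± 0.24 (SD, n = 2) in PA-eSLCs and 12.46 ± 2.14 (SD, n = 2) in NT-eSLCs. Its log2 difference was -3.41 with an SE of 1.26 (limma, adjusted p = 0.502). TAGLN differed by -2.67 with an SE of 0.92 and CALD1 by -2.13. For these 3 genes and MYL9 both PA lines lay below both NT lines, and 36.9% of all genes had arrays that did not overlap in this comparison. No member was called and no gene of the array was (0%), while 3 members and 9.93% of all genes had an unadjusted p under 0.05. The methods' t-test without adjustment listed 1 member, CALD1, and after adjustment none.

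Between PA-eSLCs and IVP-eSLCs the 10 genes differed by -2.15 to 0.53 on the log2 scale, with a median of -0.30. Both IVP lines were on the slide with SC P5 and both PA lines on the other, so origin and slide cannot be told apart here. The arrays of these origins did not overlap for 2 members, ACTA2 and MYLK, against 35.1% of all genes. ACTA2 differed most, by -2.15 with an SE of 1.26 (limma, adjusted p = 0.852). Blocking on the slide, which rests here on the NT-eSLC and SC arrays, gave -3.88 for ACTA2. None of the members was called, none had an unadjusted p under 0.05, and 0% of all genes were called while 5.19% had such a p. With 2 arrays per origin, a single line sets these means. For ACTA2 the mean of the IVP-eSLCs combined 823 in I2 with 6723 in I9, and that of the NT-eSLCs 1973 in N7 with 16054 in N2, so that the lines of 1 origin lay further apart than the means of these 2 origins. The PA lines lay close together at 597 and 471. TPM1, TPM4, ACTG2 and MYLK differed by no more than 0.45 on the log2 scale in any comparison of origins.

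Each origin had 1 line at passage 30 or 31 and 1 at passage 35 or 36, so passage and line cannot be told apart. The later lines differed from the earlier ones by -0.99 to 0.26 on the log2 scale, with a median of -0.04. TPM2 had the largest difference, -0.99 with an SE of 0.25 (limma, adjusted p = 1), and was the 1 member with an unadjusted p under 0.05, against 0.913% of all genes. Its levels in these lines were 13.3 to 72.4, near the floor. No member and 0% of all genes were called. The arrays of the passage classes overlapped for each of the 10 genes, and did not overlap for 2.81% of all genes.

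**Figure D4:**
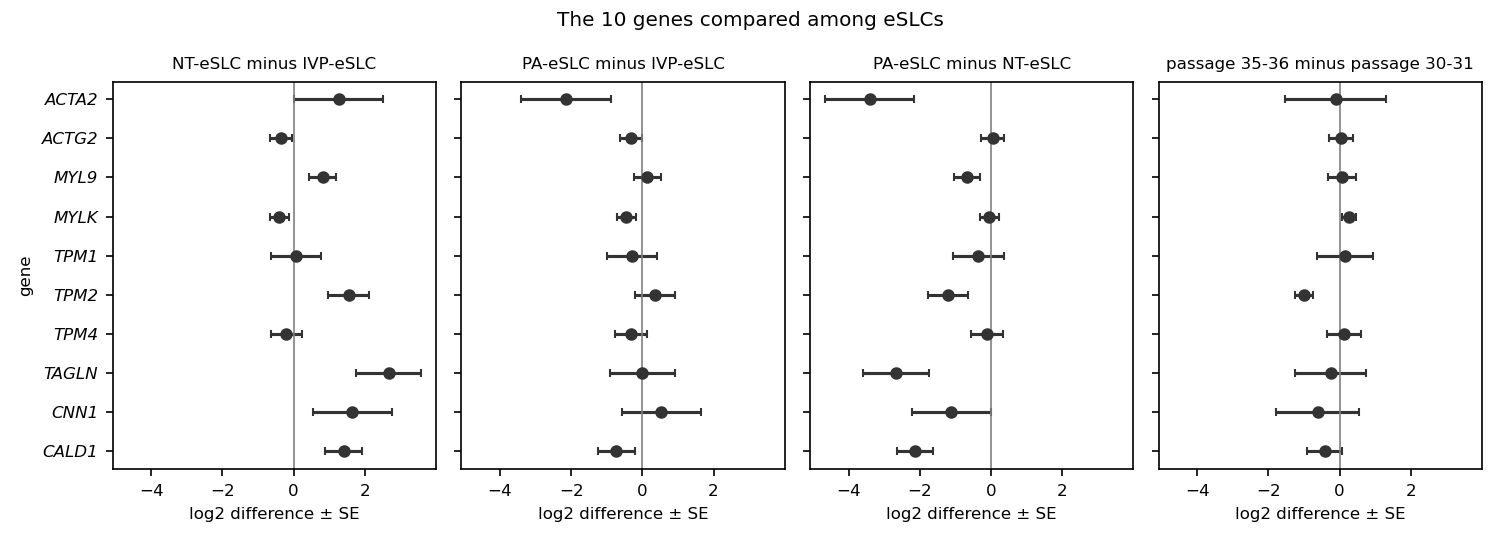
Log2 difference of each of the 10 genes in the 4 comparisons among eSLCs, with bars for the standard error of the fit. ACTA2, TAGLN and CALD1 lie to the left in PA-eSLCs against NT-eSLCs, with ACTA2 at -3.41, but none of the differences passed the test across all genes.

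The genes whose pattern was most like that of the members were found by Pearson's r with the mean of the members' centred log2 levels, among genes above the floor on every array used. Over the 6 eSLC arrays these were GALNT16, TOMM6, DTNA, ADGRL2 and NDUFA4, with r from 0.974 to 0.995, and 103 of 9682 genes had an r over 0.9. GALNT16, a glycosyltransferase gene, had a level of 84.4 in I2, 186 in I9, 290 in N2, 145 in N7, 126 in P1 and 94.4 in P4, where SC P5 gave 3302 and SC P10 gave 2765. It also had the highest r over all 8 arrays, 0.997, followed by YWHAB, LIMS2, RBFOX2 and KPNA1. LIMS2 encodes a focal adhesion protein, and its level was 704 to 2025 in eSLCs, with N2 highest, and 15912 and 16508 in the SCs. Over 8 arrays the r reflects mainly the gap between eSLCs and SCs, and 745 of 9096 genes had an r over 0.9. All genes compared share the same arrays, and the r is a description. The members themselves did not share 1 pattern over the 6 lines, with r from -0.548 (TPM2 and MYLK) to 0.971 (TAGLN and MYL9). Their mean was not scaled by gene, so ACTA2, with an SD of 2.05 among the lines, weighed more than MYLK, with 0.30.

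Other actomyosin and smooth muscle genes, taken from lists of the pathway, were tested between eSLCs and SCs with limma over all genes. The lists are read beside 19.7% of all genes called higher and 15.7% called lower in eSLCs and a median log2 difference of 0.23. Of 27 genes for cytoplasmic actin, myosin and their binding proteins, 2 were called higher, 7 lower and 18 were not called, with a median of -0.44. The cytoplasmic actins, named after their values were seen, were bright on all arrays and differed little. ACTB had a log2 difference of 0.12 with an SE of 0.42 (limma, adjusted p = 0.826) and ACTG1 of 0.22 with an SE of 0.40 (limma, adjusted p = 0.678).

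EZR, ezrin, which links actin to the membrane of epithelial microvilli, had levels of 46098 to 65480 in eSLCs and 8700 to 9366 in SCs. It rose by 2.65 on the log2 scale with an SE of 0.21 (limma, adjusted p = 0.000279). MYL12B, a regulatory light chain of non-muscle myosin and so a counterpart of MYL9, was 2.83-fold higher in eSLCs (limma, adjusted p = 0.0017). MYL12A of the same list went the other way, with a log2 difference of -0.75 (limma, adjusted p = 0.0182), and was not called. FLNA, the actin crosslinker filamin A, had levels of 2292 to 5318 in eSLCs and 24269 to 32263 in SCs, 7.38-fold lower in eSLCs (limma, adjusted p = 0.00115). TLN1, talin, which ties integrins to actin, was 5.81-fold lower (limma, adjusted p = 0.00303). The remaining genes called lower were MYH9, MYH10, ACTN1, VCL and PFN2, which encode non-muscle myosin heavy chains, alpha-actinin, vinculin and a profilin.

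The other smooth muscle genes did not move one way. Of 23 genes listed, 20 had a named probe and 18 were tested, of which 4 were called higher, 9 lower and 5 not called, with a median of -1.56. FHL1, a LIM protein of muscle, was not well above background on any eSLC array and had levels of 2069 and 1112 in the SCs, at least 114-fold lower in eSLCs (limma, adjusted p = 1.46e-05). LMOD1, leiomodin, which nucleates actin filaments in smooth muscle, had levels of 149 to 860 in eSLCs and 20137 to 22548 in SCs, 59.5-fold lower (limma, adjusted p = 0.000101). MYH11, the smooth muscle myosin heavy chain, named after its value was seen, had a log2 difference of -0.06 (limma, adjusted p = 0.895). Its levels were near the floor in both groups, at 13.3 to 35.4 in eSLCs and 15.5 and 37.8 in SCs. The size of its difference is therefore limited by the background.

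In the opposite direction, PPP1R14A, which encodes the myosin phosphatase inhibitor CPI-17, had a level of 2866 in I2, 2816 in I9, 2695 in N2, 4289 in N7, 2819 in P1 and 1451 in P4, and SC P5 had 37.2 and SC P10 37.4. It rose by 6.17 on the log2 scale with an SE of 0.31, or 72.2-fold (limma, adjusted p = 4.23e-05). DES, the muscle intermediate filament desmin and also a marker of striated muscle and of pericytes, had a level of 2511 in I2, 4005 in I9, 6906 in N2, 541 in N7, 5060 in P1 and 2876 in P4, while SC P5 gave 274 and SC P10 gave 402. It rose by 3.11 with an SE of 0.92 (limma, adjusted p = 0.0357). The DES call was lost without I2, I9, P1, P4 or either SC array, with adjusted p from 0.0625 to 0.226, and the direction turned with the mean of its probes, which gave -0.08. PGM5 and CSRP2 were the other genes called higher. Of 14 striated muscle markers tested, 2 were called higher (TNNC1 and DES) and 2 lower (ACTC1 and MB), and of 5 markers of pericytes and vascular smooth muscle, 2 were higher (MCAM and DES) and none lower. Their summed levels were 7156 to 16838 in eSLCs and 11430 to 12602 in SCs for striated muscle, and 17378 to 39266 and 6983 to 16061 for pericytes. Most of the pericyte sum was MCAM, with 14290 to 34974 in eSLCs and 15553 and 6319 in the SCs. CSPG4, KCNJ8 and MYH11 of that list were not called. The pericyte marker RGS5 and the striated muscle markers MYH1, MYH3 and TNNT1 were not well above background in either SC array. RGS5 and MYH1 were not tested, because no condition had them well above background on both arrays. MYH3 and TNNT1 were at the floor in I9 and N2 too and were not called, as was the case for 10 of the 14 striated muscle markers. Some other striated muscle markers were higher in SCs, where MB, at the floor on all eSLC arrays, had levels of 191 and 66.6, ACTC1 was 2.39-fold higher and ACTA1, which was not called, 1.94-fold. Fibroblast markers also moved with the members, as given above. The part of these markers in the members' difference was not tested.

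Serum response factor and YAP signaling drive many contractile genes. Of 22 genes of this axis, 15 had a named probe and were tested, of which 1 was called higher, 6 lower and 8 not called, with a median of -1.03. ANKRD1, a target of YAP, had a level of 17.4 in I2, 305 in I9, 1057 in N2, 572 in N7, 57.6 in P1 and 318 in P4, with 9936 for SC P5 and 34472 for SC P10. N2 was the highest line for ANKRD1 and I2 the lowest. For CCN1 the highest line was P1 and the lowest I2, and for CCN2 they were N2 and N7. ANKRD1 was 93.8-fold lower in eSLCs (limma, adjusted p = 0.00737), a call lost without either SC array (adjusted p = 0.0568 and 0.0963). CCN2, the connective tissue growth factor gene and another target of YAP and of serum response factor, had levels of 2146 to 5058 in eSLCs and 100245 to 120308 in SCs, 30.8-fold lower (limma, adjusted p = 0.00035). CCN1, ETS1, KLF4 and JUNB were the others called lower. SRF itself, named after its value was seen, had a log2 difference of -0.94 (limma, adjusted p = 0.0124), under the 2-fold limit. ELK1, a partner of serum response factor that competes with MRTFs, rose by 1.14 (limma, adjusted p = 0.00887). The call was lost with quantile normalization, where the difference was 0.88, with normexp, the processed signal and the series matrix, and without SC P10. Leaving out 1 array gave ELK1 differences of 0.87 to 1.40. MRTFA, MYOCD, YAP1 and 4 other genes of the list had no named probe.

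**Figure D5:**
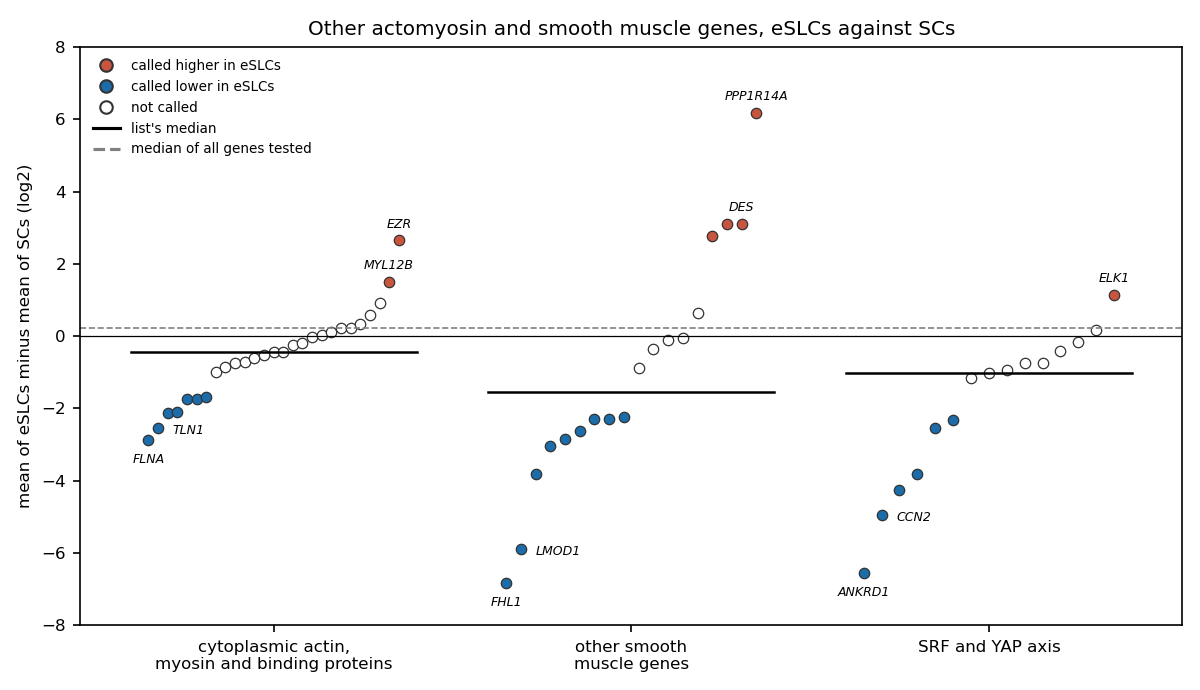
Log2 difference between eSLCs and SCs of the tested genes of 3 lists, 1 point per gene, filled where called, with each list's median as a line and the median of all genes tested, 0.23, dashed. The other smooth muscle genes spread from FHL1 at -6.83 to PPP1R14A at 6.17. Of the 27 cytoplasmic genes, 2 were called higher and 7 lower, beside 19.7% and 15.7% of all genes.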

How the data were processed

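RNA of 8 samples was measured on 1-colour Agilent bovine 44K arrays, and the authors quantified the scans with Feature Extraction (version 11.5.1.1 per the file headers) and normalized them with GeneSpring. The deposited scanner output gives raw linear intensities of each array, and the deposited series matrix intensities that the authors had normalized. The background-subtracted signal was used, because in 6 of the 8 files the processed signal followed it poorly (Spearman correlation over 10957 genes of 0.436 to 0.490, against 0.918 in I2 and 0.913 in N2). Control spots and outlier spots (1 to 11 per array) were left out, spots of a probe were averaged, and levels were scaled to the 75th percentile (set to 1000), raised to a common floor of 13.3 and taken to log2. No spot was saturated. Probes were named through RefSeq accessions (26731 probes), and each gene was represented by its brightest probe (highest mean log2 level over the 8 arrays).

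The test was limma (version 3.58.1, R 4.3.3), with 1 moderated fit of condition means on all 8 arrays and, for passage, a fit on the 6 eSLC arrays with origin as a factor. It covered the 10957 genes that were well above background on both arrays of some condition, and a call needed a Benjamini-Hochberg adjusted p under 0.05 and a change of at least 2-fold. The code was tested on simulated data. The members and the gene lists were chosen with earlier results of these data known. Some planned items are not reported here. The genes named are the 10 members, from each list the 2 largest rises and the 2 largest falls among genes called, and the 5 genes most like the members' mean profile over the 6 eSLC arrays and over all 8. Other genes, such as the remaining genes called in a list and single markers, were named after their values were seen. Alternatives were scaling to the median, quantile normalization, the processed signal, normexp background correction (offset 50, on the median signal, because the planned mean signal was not among the columns), the series matrix, other filters, averaging all probes of a gene, counting both SC arrays as 1 sample, fitting only the conditions compared, blocking on the slide, the methods' t-test and leaving out each array. Figures came from matplotlib 3.10.9 under Python 3.11.15. The number of arrays limits the precision.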

Additional observations from a re-analysis of the deposited data

How the results depend on the processing

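No explanation of a change between settings was tested. The 10 genes were lower in eSLCs than in SCs under every alternative except the processed signal, which gave TPM1 3.15, MYLK 7.31 and CALD1 3.62 (log2, eSLCs minus SCs), and FLNA 2.81, TLN1 2.14 and LMOD1 1.61 among the listed genes. DES differed by -0.14 with the processed signal and by -0.0755 with the mean of its probes. The median over the members was -2.28 with the processed signal, -5.00 with the mean of a gene's probes and -4.47 to -4.04 without 1 array. Quantile normalization moved the median of all genes from 0.23 to 0.04. With the processed signal 4 members were called lower in eSLCs, 3 in IVP-, 1 in NT- and 4 in PA-eSLCs, and of the lists 0 cytoplasmic genes in either direction, 1 smooth muscle gene higher and 0 lower, and 0 genes of the serum response factor and YAP axis higher and 1 lower. With the SC arrays as 1 sample 5 members were called lower in IVP- and 3 in NT-eSLCs. With the Student's t-test named in the methods, adjusted here over all genes, 2 members were called lower in IVP-eSLCs and 0 in NT-eSLCs. The unadjusted t-test listed 1 member, CALD1, between PA- and NT-eSLCs. The series matrix left 1 cytoplasmic gene higher, and quantile normalization, normexp and the series matrix left 0 genes of the serum response factor axis higher.

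Leaving out 1 array gave 5 to 10 members called lower in IVP-eSLCs (5 without SC P10), 3 to 9 in NT-eSLCs (3 without either SC array) and 0 to 1 genes of the serum response factor axis higher (0 without SC P10). For all eSLCs together, 8 members were called lower without SC P5, 7 without SC P10 and 9 without P4. The TPM2 difference between passages was 1.10 with the processed signal and 1.32 with the series matrix. No member was called among the eSLC origins or passages under any alternative with adjustment, with 2 arrays per origin. In the series matrix, the values of 10165 probes, which include those used here for ACTA2, CNN1, MYL9, TAGLN, TPM2 and TPM4, differed between SC P5 and SC P10 by a median of 0.34 units against 572 units for the other probes, so that this alternative does not hold 2 separate SC measurements for these 6 genes. Over 10065 of these probes, the scanner signals of N2, N7, P1 and P4 followed another array's matrix column more closely than their own (r with their own of 0.31 to 0.605), and the matrix value for TPM2 between passages is not read as a measured reversal. No paired analysis was possible because the labels give every sample the same replicate number and the conditions hold different lines.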
